A study of Mus musculus with 4 samples.

Results

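The cells described here are the Clca1-high canonical goblet cells of the mouse distal colon (DC). They were selected on their own RNA levels, in unique molecular identifiers (UMIs, counts of single captured transcripts) per 10000 UMIs of the cell. A member had at least 20 Muc2 and at least 20 Clca1. It also had less than 3 Mxd1, less than 5 of Muc3, Gsdmc2, Gsdmc3 and Gsdmc4 summed, less than 5 of 10 mitotic genes summed (Mki67, Top2a, Cenpf, Birc5, Ube2c, Ccnb1, Ccnb2, Cdc20, Cdk1 and Nusap1), and less than 2 of Lgr5, Smoc2 and Clca3b summed. Cells were kept with 500 or more genes and no more than 20% of UMIs from mitochondrial genes. Of 6776 kept DC cells, 647 were members, 251 of 1859 in library DC 1 and 396 of 4917 in library DC 2. The 2 DC libraries and the 2 libraries from section 8 of the small intestine (Si8) came, per the labels, from RedMUC298trTg mice aged 6 to 8 weeks, and all 4 were made with the 10x Genomics 3′ kit. These mice carry mCherry in their goblet cells, and live cells were sorted by the presence or absence of mCherry, with a C57Bl6 mouse as the negative control. The labels do not say which side of that gate a library holds, nor that the libraries come from separate mice, so p-values measure only the spread between these samples.

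Goblet cells make the mucus of the gut. They fold and O-glycosylate the gel-forming mucin Muc2 in the endoplasmic reticulum and Golgi, store it in granules and release it with partner proteins such as Clca1, a metalloprotease that processes the mucus, Fcgbp, a protein bound into the mucus gel, and Zg16, a lectin that binds the wall of Gram-positive bacteria. In the colon this gel forms a dense inner layer that keeps bacteria away from the epithelium, and goblet cells move from the crypt base to the surface as they mature.

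The bases just before the starts of 2 genes are shown, 1 from each side of the comparison of members with Clca1-low cells described further on. Fcgbp was higher and Reg4, a secreted lectin-like protein of deep crypt secretory cells, was lower in members. They are from RefSeq on GRCm38.p6, both on the plus strand, at chr7:28070986-28071235 for Fcgbp and chr3:98221906-98222155 for Reg4. Capitals mark matches, on either strand, to an E-box of the kind bound by basic helix-loop-helix factors such as Atoh1 (CAGCTG) or to a forkhead motif (TGTTTAC).
Fcgbp: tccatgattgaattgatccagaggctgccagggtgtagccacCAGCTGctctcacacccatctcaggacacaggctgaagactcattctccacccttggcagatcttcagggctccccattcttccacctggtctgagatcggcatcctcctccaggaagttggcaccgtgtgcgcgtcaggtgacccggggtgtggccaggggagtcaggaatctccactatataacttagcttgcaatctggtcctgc
Reg4: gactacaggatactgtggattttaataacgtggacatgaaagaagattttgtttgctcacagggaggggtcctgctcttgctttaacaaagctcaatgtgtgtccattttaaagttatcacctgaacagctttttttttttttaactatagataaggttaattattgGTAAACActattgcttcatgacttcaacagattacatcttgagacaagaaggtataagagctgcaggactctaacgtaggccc
Fcgbp held 1 match to the E-box, first base at position -208 from the start, and none to the forkhead motif. Reg4 held 1 match to the forkhead motif, at -83, and none to the E-box. The motifs do not overlap in these windows. Among 32817 promoters of the same length, 13.0% held this E-box and 3.16% the forkhead motif.

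Members made up 13.5% of kept cells in DC 1 (95% Clopper-Pearson interval 12.0 to 15.1%) and 8.05% in DC 2 (7.31 to 8.85%). The intervals cover counting error only, and they do not overlap. The other kept DC cells were sorted into classes by the clause they failed. A cell that failed several was counted once, by the first in the order Muc2, mitotic, stem, Mxd1, surface and Clca1. The counts of later classes therefore leave out cells that also failed an earlier clause. Clca1-low cells, which met every clause but the one on Clca1, numbered 553 and 1576. Cells with less Muc2 than the rule asks (Muc2-low) numbered 670 and 1634. Cells high in the summed Muc3 and Gsdmc genes (surface-gene-high) numbered 108 and 593, and Mxd1-high cells 143 and 145. Mitotic cells numbered 116 and 445, and cells high in stem or Clca3b transcripts 18 and 128. The name surface-gene-high stands for its clause and not for a position in the epithelium. Applied to Si8, the same rule took 678 of 1509 and 879 of 2237 cells, or 44.9% and 39.3%. Both Si8 shares lay above both DC shares, and the exact two-sided permutation test over libraries gave p = 0.333, the smallest it can give with 2 against 2. Among cells that passed the Muc2 clause alone, members were 21.1% and 12.1% of DC cells and 49.0% and 51.1% of Si8 cells. How mCherry was gated and which cells survived dissociation bear on such shares and were not tested.

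Members held a median of 11959 UMIs in DC 1 and 10197.5 in DC 2, and 19047 and 19490 in Si8. The DC libraries shared 12 kept barcodes, of which 2 belonged to DC 1 members. Of the DC cells with the highest doublet scores, which an alternative took out, 2 and 6 were members. They were left in here. Over the members of a library, the marker lists of other cell types summed to 6.56 and 6.54 CPM (UMIs scaled to a total of 1000000) for 18 tuft markers, 9.32 and 10.1 for 17 stromal and endothelial markers, and 0 and 0.503 for 21 immune markers. The 24 enteroendocrine markers summed to 10.0 and 96.8 CPM. Colonic absorptive markers, 30 genes, summed to 4253 and 4394 CPM in members, 2151 and 2326 in Clca1-low cells and 24123 and 16143 in Mxd1-high cells. Dissociation stress and heat shock genes, 29 in number, summed to 27249 and 22391 CPM in members, the highest of the DC classes in both libraries. They summed to 22083 and 17826 CPM in all other kept cells, 25176 and 18791 in Clca1-low cells and 22992 and 21628 in Mxd1-high cells. The part of this in the differences within the colon was not tested.

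The markers Clca1, Zg16, Fcgbp and Muc2 were all present. Clca1 and Muc2 were part of the rule, so their levels are a description of it. Clca1 (ENSMUSG00000028255, GRCm38 chromosome 3, 145003817 to 145032776) stood at a median of 52.2 and 42.1 UMIs per 10000 in the members of DC 1 and DC 2, with maxima of 821 and 341. Muc2 (ENSMUSG00000025515, chromosome 7, 141690340 to 141754693) had medians of 69.8 and 81.7. Just inside the Clca1 threshold, 28 and 65 members had less than 25 Clca1 UMIs per 10000. Just outside it, 40 and 90 cells had 15 to 20, while 135 and 316 of the Clca1-low cells had none.

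Because the members were chosen by expression in these cells, no test was made of members against other DC cells, and every gene that tracks Clca1 or Muc2 had to differ. Levels are CPM of the UMIs summed over the cells of a class, and ratios were taken after adding 10 CPM. On the higher side, the 4 largest ratios were those of Zg16, Spink1, Ang4 and Fcgbp, all genes of secreted products. Zg16 (ENSMUSG00000049350, chromosome 7, 127050156 to 127087328) stood at 40774 CPM in members of DC 1 and 57837 in members of DC 2, against 5155 and 5405 in the other kept cells, a mean ratio of 9.18. In Muc2-low cells, which shared any free RNA of the same droplet runs, Zg16 stood at 380 and 768 CPM. Fcgbp (ENSMUSG00000047730, chromosome 7, 28071236 to 28120862) stood at 7146 and 7624 CPM in members against 1603 and 1170 in the others, a ratio of 5.36. Both libraries gave the same order for each marker in these sums. The rule fixed that order for Clca1 and Muc2, and genes that track them had to follow. The sums do not show how far single cells overlap.

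Tff3, a trefoil peptide secreted with mucin (chromosome 17, 31125306 to 31129646), stood at 33626 and 34985 CPM in members and at 9799 and 6031 in the other cells (ratio 4.46). Spink1, a secreted trypsin inhibitor (chromosome 18, 43728082 to 43737557), stood at 6457 and 6666 CPM against 908 and 557. Its ratio of 9.11 was close to that of Zg16. In Mxd1-high cells Spink1 stood at 17663 and 12616 CPM and Zg16 at 66547 and 72799, above members for both genes. Ang4, an antimicrobial ribonuclease known from Paneth and goblet cells (chromosome 14, 51763878 to 51773590), stood at 280 and 111 CPM against 29.1 and 9.38. Its close relatives in the angiogenin family make the assignment of its UMIs uncertain. Sval1, a secreted protein gene of the seminal vesicle antigen family, stood at 10979 and 11709 CPM against 4239 and 4742.

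In all, 29 of 2548 genes outside the rule were at least 2-fold higher in members than in the other cells of both libraries, which is 1.14%, and 82 were at least 2-fold lower, or 3.22%. A gene was counted when its higher side reached 50 CPM in both libraries. The median ratio over these genes was 0.900. Of the 34 genes past 2-fold on the higher side in DC 1, 29 were past it in DC 2 and all 34 had the same direction there. From DC 2, 29 of 46 higher and 82 of 97 lower genes were past 2-fold in DC 1. The rule drew on the same cells, so these shares describe the selection.

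**Figure D1:**
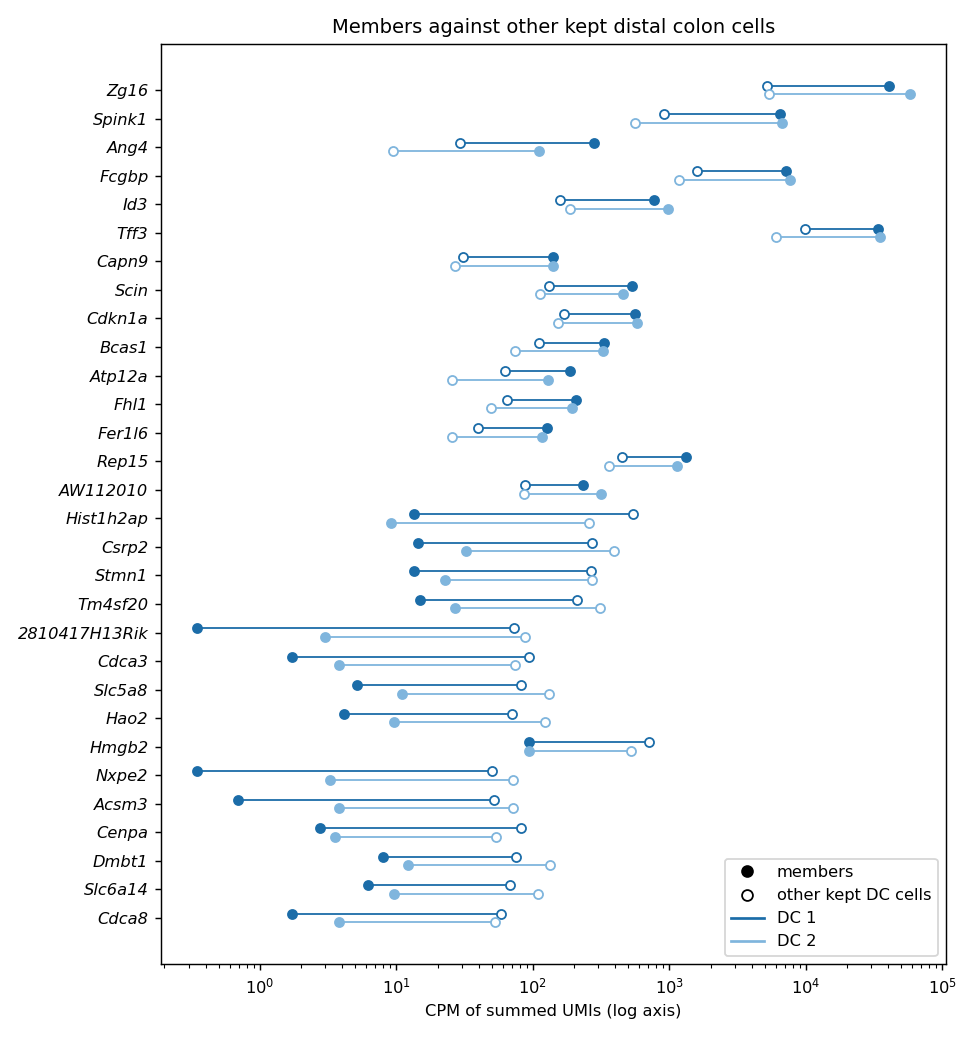
Levels in CPM (log axis) of the 15 genes with the highest and the 15 with the lowest ratio of members (filled circles) to other kept distal colon cells (open circles), one line per gene and library. Only genes with the same direction in both libraries were taken, so their agreement in direction was set by the choice. In members Zg16 stood at 40774 and 57837 CPM and Cdca8 at 1.73 and 3.77.

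Mucus genes were the group with the most members on the higher side. Of 16 counted mucus and secreted goblet products, 6 were higher (Zg16, Spink1, Ang4, Fcgbp, Tff3 and Sval1) and 1, Dmbt1, was lower, with a median ratio of 1.65. Dmbt1, a scavenger receptor-like mucosal protein, stood at 7.94 and 12.1 CPM in members, 2.67 and 8.70 in Clca1-low cells, and 304 and 262 in surface-gene-high cells. Spink4, a secreted inhibitor-like goblet protein, stood at 13264 and 12508 CPM in members and 13099 and 11498 in the other cells. Mptx1, a mucosal pentraxin, stood at 44581 and 25368 CPM in members and 23389 and 16186 in the other cells (ratio 1.73), but at 46658 and 34254.5 in Clca1-low cells. In members it took more of the UMIs than Tff3 in DC 1 but fewer in DC 2.

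Of 11 counted exocytosis genes 4 were higher and none lower against all other cells, with a median ratio of 1.61. Of these 4, Scin alone was also past 2-fold against Clca1-low cells. Scin, an actin-severing protein of secretory cells, stood at 534 and 456 CPM in members against 130 and 113 in the others. Rab27b, a GTPase that docks granules, stood at 191 and 222 CPM against 76.0 and 74.5, and its relative Rab27a at 65.6 and 66.6 against 24.5 and 17.9. Sytl2, a Rab27 effector, stood at 245 and 235 CPM against 112 and 83.5. Rep15, which binds Rab15 and was not on the list, stood at 1323 and 1130 CPM against 448 and 362.

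Few genes of the earlier steps of mucin production were past 2-fold against the other cells. Over all 2548 counted genes 1.14% were higher and 3.22% lower, with a median ratio of 0.900. A list of 37 genes with none past 2-fold is near those shares. None of 37 counted genes of ER folding and the unfolded protein response was past 2-fold in either direction (median ratio 1.20), nor was any of 37 genes of ER translocation and ER-to-Golgi transport (median ratio 1.03). Hspa5, the main ER chaperone, stood at 2116 and 2171 CPM in members against 1264 and 1102 in the others. Agr2, a disulfide isomerase needed for Muc2, stood at 13928 and 16035 CPM against 8929 and 10144. Of 28 counted O-glycosylation genes 3, or 10.7%, were higher and none lower (median ratio 1.16). These were Capn9, a calpain of gastrointestinal epithelium listed with the goblet glycosylation genes, at 139 and 140 CPM against 31.0 and 26.9, and the glycosyltransferase genes Gcnt3, at 265 and 205 against 118 and 68.2, and St6gal1, at 358 and 311 against 168 and 131.

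Among 20 counted transcription factors of the secretory lineage and epithelium, 2 were higher and none lower. Id3, an inhibitor of basic helix-loop-helix factors (chromosome 4, 136143497 to 136145755), stood at 765 and 970 CPM in members against 158 and 188 in the others (ratio 4.77). Klf4, needed for colonic goblet cell differentiation and also among the dissociation stress genes, stood at 1401 and 1158 CPM against 524 and 461. The lineage factors were closer: Spdef stood at 147 and 139 CPM against 114 and 86.2, and Atoh1 at 408 and 251 against 363 and 163. Atoh1 varied more between the libraries than between members and the other cells within one. Cdkn1a, a cell cycle inhibitor of differentiating epithelium, stood at 560 and 579 CPM against 169 and 152.

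On the lower side, of 11 counted cell cycle genes outside the rule, 9 were lower and none higher, with a median ratio of 0.225. The rule left out mitotic cells and so fixed this in advance. Of 19 counted genes of surface and late differentiation epithelium, 1 was higher, Cdkn1a, and none lower (median ratio 1.40). Of 13 counted colonic absorptive markers, 2 were higher and 3 lower (median ratio 0.634). Csrp2, a LIM-domain protein (chromosome 10, 110919789 to 110939622), stood at 14.5 and 32.2 CPM in members and 35.5 and 59.3 in Clca1-low cells. It was high in several other classes, at 382 and 574 CPM in Muc2-low, 345 and 431 in mitotic, 326 and 408 in stem or Clca3b-high, and 404 and 448 in surface-gene-high cells. The short-chain fatty acid transporter gene Slc5a8, the peroxisomal oxidase gene Hao2 and the amino acid transporter gene Slc6a14 were at 11.1 CPM or less in members and at 216 CPM or more in surface-gene-high cells. They were also low in Clca1-low cells, at 13.3 CPM or less. The rule left out surface-gene-high cells, so genes that track that clause had to be lower in members. None of the 76 counted ribosomal protein genes was past 2-fold, with a median ratio of 0.631.

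Comparison with each class in turn showed where the members stood among Muc2-high cells. Against Clca1-low cells, which differ from them by the Clca1 clause alone, 24 of 2335 genes were at least 2-fold higher in both libraries and 7 were lower. The higher genes were led by Spink1, Ang4, Zg16, the acute phase gene Saa1, the keratin gene Krt20 and Id3. The 7 lower genes were Reg4, Mt2, Cma1, Guca2b, Cldn2, Plpp1 and Gpx2. Against Mxd1-high cells 41 of 2418 genes were higher and 126 lower. The lower ones were led by Car4, Tgm3, Slc26a3, Car1 and Saa1, genes of mature colonic surface cells, and the higher ones by Mptx1, Cldn15, Ang4 and the ion cotransporter gene Slc12a2. Against surface-gene-high cells 35 of 2561 genes were higher, Krt20 and Saa1 among them, and 81 lower. Muc3 stood at 2062 and 1832 CPM in surface-gene-high cells, but also at 1126 and 1093 in stem or Clca3b-high cells. In Muc2-low cells it stood at 836 and 1514 CPM.

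Members lay between Clca1-low and Mxd1-high cells in the genes given next. Clca1 stood at 447 and 403 CPM in Clca1-low cells, 6526 and 5502 in members, and 19849 and 11486 in Mxd1-high cells, so the members were not the cells with the most Clca1. Krt20 stood at 6.23 and 6.85 CPM in Clca1-low cells, 60.1 and 82.7 in members, and 599 and 511 in Mxd1-high cells. Reg4 ran the other way, at 6430 and 6741, then 2376 and 2039, then 532 and 853 CPM. Saa1 stood at 22.6 and 45.2 CPM in Clca1-low cells, 280 and 274 in members, and 6131 and 3490 in Mxd1-high cells. Mxd1-high cells were shallow, with median UMIs of 4486 and 5979. A single Mxd1 UMI makes a cell of under 3333 UMIs fail the Mxd1 clause. Of the kept DC cells that shallow, 18 of 23 and 4 of 6 were in the Mxd1-high class. Median mitochondrial UMIs were 10.7% and 9.73% there against 5.83% and 5.92% in members. The part that depth or RNA quality has in this order was not tested.

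**Figure D2:**
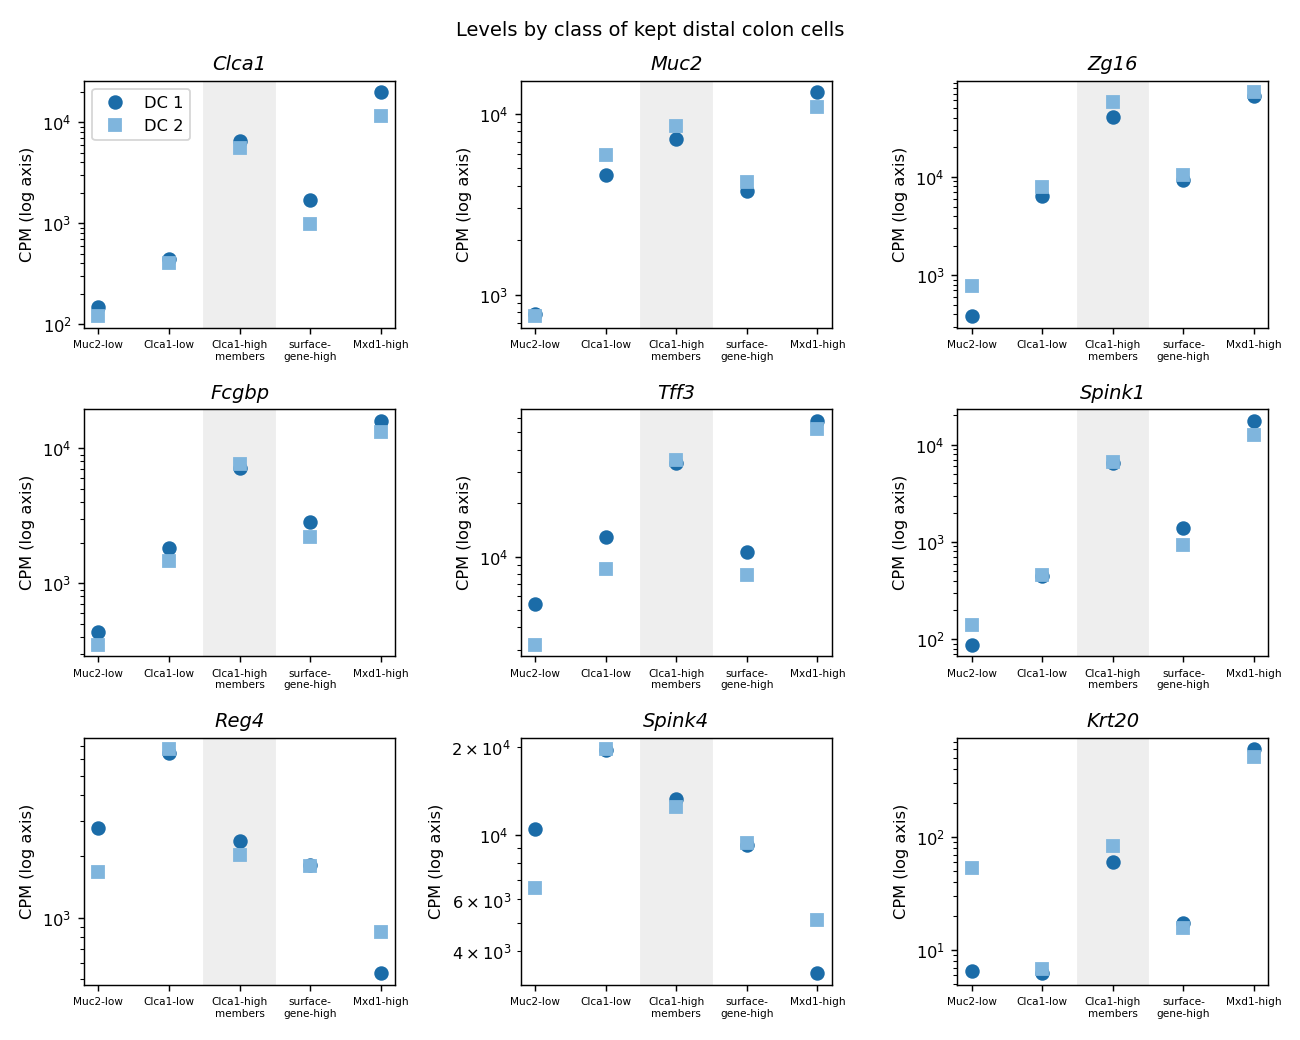
CPM (log axes) of 9 genes in 5 classes of kept distal colon cells, circles for DC 1 and squares for DC 2, with the members shaded. Clca1, Zg16, Fcgbp, Tff3, Spink1 and Krt20 are higher in members than in Clca1-low cells and higher again in Mxd1-high cells, whereas Reg4 and Spink4 are lower in each of these in turn.

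Cells that met every other clause were binned by their Clca1 level, on both sides of the threshold, and UMIs were summed in each bin. A gene that tracks Clca1 had to rise over these bins. Whether single cells change gradually or the mix of cells changes was not tested. From cells with no Clca1 UMI through more than 0 to 10, 10 to 20, 20 to 40, 40 to 80, and 80 or more per 10000, Zg16 in DC 1 stood at 1398, 5697, 15220, 28516, 41907 and 58730 CPM. In DC 2 the same bins held 2715, 6362, 22246, 35514, 67191 and 104108 CPM of Zg16. No bin in either library fell below the one before it. Fcgbp went from 1043 to 12142 CPM in DC 1 and from 845 to 14982 in DC 2, and Tff3 from 8092 to 43218 and from 4805 to 59145.

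Secretory products did not all run the same way. Reg4 went from 9290 to 1900 CPM in DC 1 and from 8675 to 732 in DC 2, and each bin was lower than the last. Spink4 went from 22544 to 10542 and from 21559 to 7871 CPM. Sycn, the zymogen granule protein syncollin, went the other way, from 539 to 967 CPM in DC 1 and from 586 to 1348 in DC 2, and Retnlb, a goblet cell resistin-like protein, from 3.80 to 67.6 and from 9.34 to 29.8. Atoh1 was 513 CPM in the first bin and 361 in the last in DC 1, and 281 and 201 in DC 2, where the middle bins had no steady order. The posterior homeobox gene Hoxb13 went from 445 to 259 and from 481 to 264 CPM. Sval1 differed by less than the mucus proteins, from 8015 to 11282 CPM and from 9808 to 12283. The libraries differed in Mptx1, which stood at 45680 CPM in the first and 44342 in the last bin of DC 1 but went from 34270 to 17052 in DC 2. Median UMIs per cell were 11914 in the first and 10912.5 in the last bin of DC 1, and 9702 and 9691 in DC 2.

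**Figure D3:**
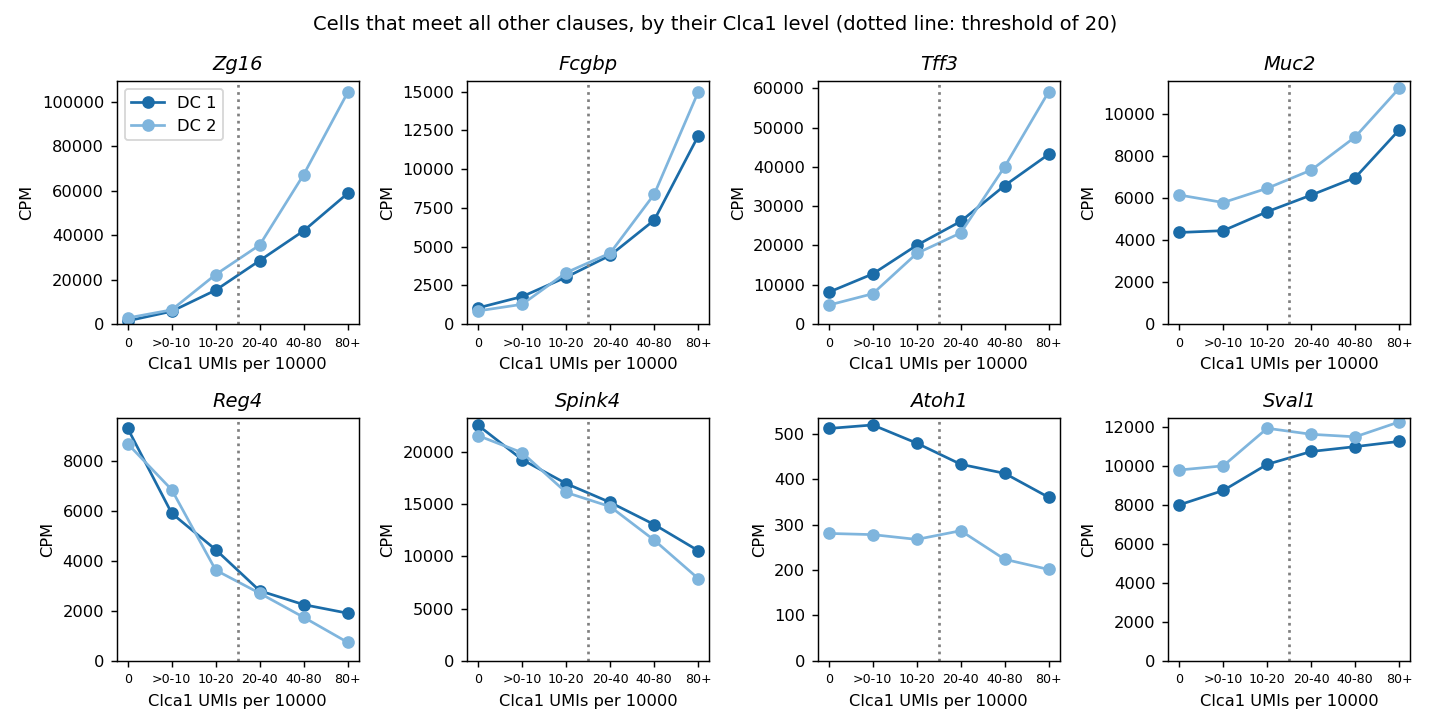
CPM of 8 genes in cells that meet every clause but the one on Clca1, by their Clca1 level in UMIs per 10000, dark for DC 1 and light for DC 2; the dotted line is the threshold of 20. Zg16, Fcgbp and Tff3 are higher in each bin than in the one before in both libraries, and Reg4 and Spink4 end lower than they begin.

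The members were not alike. Per cell, Zg16 ran from 18.8 UMIs per 10000 at the 10th percentile to a median of 332 and 972 at the 90th in DC 1, and from 53.9 to 534 and 1189 in DC 2. Mptx1 ran from 18.2 to 227 and 1156 in DC 1 and from 18.8 to 141 and 628 in DC 2. Agr2 was even, from 68.5 to 127 and 208 in DC 1 and from 82.9 to 144 and 232 in DC 2. The coefficient of variation beyond counting noise was 0.891 and 0.735 for Zg16, 1.11 and 1.18 for Mptx1, 1.22 and 1.08 for Spink1, and 0.413 and 0.379 for Agr2. The tissue kallikrein gene Klk1 was the most even of the abundant products shown here, at 0.322 and 0.284.

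A few genes were concentrated in a small share of members. Ang4 had a UMI in 19.5% of members in DC 1 and 10.6% in DC 2, yet reached 93.0 and 109 UMIs per 10000 in single cells, with coefficients of variation of 4.04 and 6.83. Saa1 had a UMI in 42.6% and 55.6% of members and reached 176 and 149. Slfn4, a member of the Schlafen family, had a UMI in 33.9% and 37.9% and reached 72.9 and 45.0. For each of these genes the median member had less than 1 UMI per 10000.

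**Figure D4:**
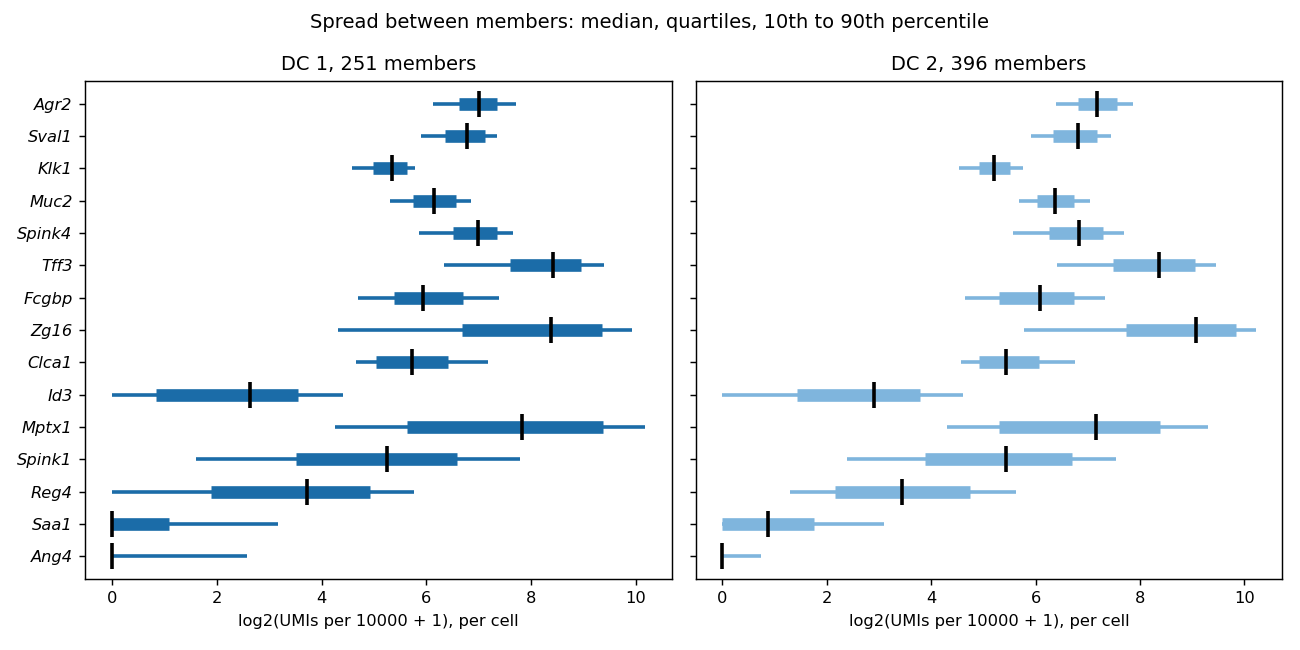
Spread of 15 genes over single members, as log2(UMIs per 10000 + 1), with the median (tick), the quartiles (thick bar) and the 10th to 90th percentile (thin line), for 251 members of DC 1 and 396 of DC 2. Agr2, Sval1 and Klk1 have short bars, Zg16, Mptx1, Spink1 and Reg4 long ones, and Ang4 has its median at 0.

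Across members, Zg16, Fcgbp and Tff3 went together, and Spink4 and Mptx1 stood against them. Zg16 and Tff3 had a Spearman correlation of 0.701 over the 251 cells of DC 1 and 0.769 over the 396 of DC 2. Zg16 and Fcgbp gave 0.652 and 0.761, and Fcgbp and Tff3 0.714 and 0.736. Muc2 was less closely tied to Zg16, at 0.545 and 0.384, and to Tff3, at 0.478 and 0.258. Agr2 was weakly negative with Fcgbp, at -0.123 and -0.268. Spink4 was negative with Zg16, at -0.481 and -0.592, and with Tff3, at -0.482 and -0.617. Mptx1 was negative with Tff3, at -0.465 and -0.430. Sval1 had little relation to Zg16, at 0.139 and 0.0464. Cells of a library share its depth range, and all values are shares of 1 total, so an abundant gene takes UMIs from the rest.

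The next question was how cells chosen by 1 rule differ between the colon and the small intestine. UMIs were summed per library and compared with edgeR's quasi-likelihood test, which gave log2 fold changes of DC minus Si8 with their standard errors and p-values adjusted by Benjamini-Hochberg over all 10748 genes tested outside the rule. Of these, 2047 were higher in DC (19.0%) and 2203 lower (20.5%). With scaling by library totals alone, in place of the TMM factors, 79.2% of 5507 called genes were higher in DC instead of 48.2%. The median log2 fold change moved from 0.02 to 0.43. Changes are given with the TMM factors, relative to a median near 0.

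Mucus genes split between the regions among cells that met the same rule. Of 22 tested, 10 were higher and 9 lower in DC, or 10 and 8 by library totals alone. The rule set thresholds and did not match levels. Median Clca1 per cell, in the units of the rule, was 52.2 and 42.1 in DC members and 72.0 and 73.9 in Si8 members. Median Muc2 was 69.8 and 81.7 in DC members and 117 and 125 in Si8 members. The part of these differences in the changes given here was not tested. Zg16 stood at 40774 and 57837 CPM in DC and 75656 and 96010 in Si8. Its log2 fold change was -1.21 ± 0.22 (SE, edgeR adjusted p = 0.00359). Fcgbp stood at 7146 and 7624 CPM in DC and 10791 and 12176 in Si8, at -1.04 ± 0.14 (edgeR adjusted p = 0.000743). Both DC libraries lay below both Si8 libraries for each. By library totals alone the changes were -0.80 and -0.64, and both were still called. Clca1 and Muc2, used by the rule, stood at 6526 and 5502 and at 7215 and 8540 CPM in DC, and at 7468 and 7780 and at 11385 and 12054 in Si8.

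Tff3 stood at 33626 and 34985 CPM in DC and 90832 and 89460 in Si8 (log2 fold change -1.80 ± 0.15, edgeR adjusted p = 6.72e-05). Agr2 fell by 1.45 ± 0.14 on the log2 scale (edgeR adjusted p = 0.00017). Spink4 stood at 13264 and 12508 CPM in DC and 31325 and 29461 in Si8. On the other side, Mptx1 stood at 44581 and 25368 CPM in DC and 23.7 and 19.6 in Si8 (log2 fold change 10.26 ± 0.36, edgeR adjusted p = 1.29e-06). Spink1 stood at 6457 and 6666 CPM in DC and 108 and 65.8 in Si8 (5.85 ± 0.24, edgeR adjusted p = 2.79e-06). Sval1 stood at 10979 and 11709 CPM in DC and 250 and 265 in Si8, and Reg4 at 2376 and 2039 and at 50.7 and 136. All genes given with values in this comparison passed unless their sentence says otherwise.

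**Figure D5:**
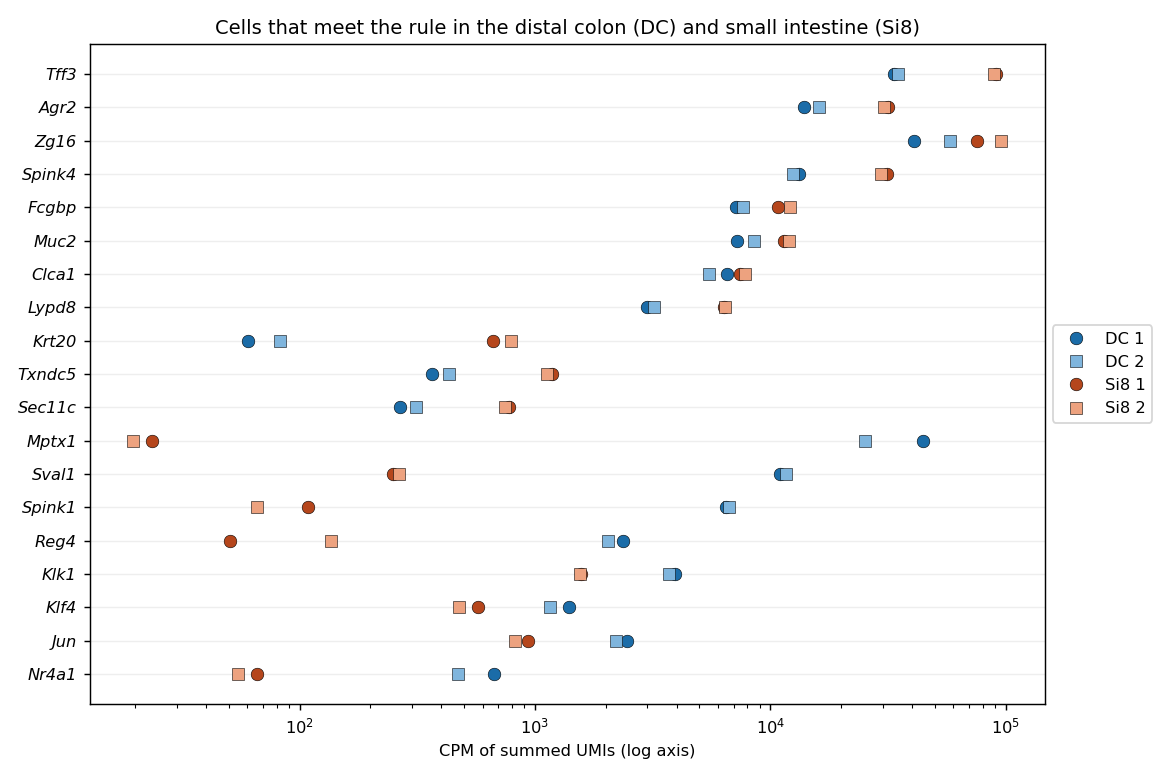
CPM (log axis) of 19 genes in cells that meet the rule, blue for the 2 distal colon libraries and orange for the 2 small intestinal ones. From Tff3 down to Sec11c both DC points lie left of both Si8 points, and from Mptx1 down to Nr4a1 they lie right of them.

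Several genes of DC members had no UMI in the Si8 members, and their folds were set against a floor of 3 counts over both Si8 libraries. Hoxb13 stood at 305 and 358 CPM in DC members, at least 3287-fold higher. Best2, a bestrophin channel that carries bicarbonate in colonic goblet cells, stood at 349 and 292 CPM, at least 3094-fold higher. The matricellular gene Nov stood at 117 and 238 CPM, and Atp12a, a proton pump subunit, at 187 and 128 CPM. The protease inhibitor gene Slpi stood at 56.6 and 135 CPM and Thbs4, a thrombospondin gene, at 54.2 and 73.9 CPM. These 4 genes were at least 1834-fold, 1501-fold, 997-fold and 643-fold higher in DC.

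Antibacterial lectin and defensin genes held the other end. Reg3g stood at 9446 and 5366 CPM in Si8 members with no UMI in DC members, at least 16135-fold lower in DC. Reg3b had 1 UMI in DC and 134800 in Si8. Scaled by depth, that is a ratio of 31512, whose 95% interval from counting error runs from 5656 to 1244680.0. Paneth markers, 19 genes, summed to 5697 and 9962 CPM in Si8 members and to 182572 and 159455 CPM in the Muc2-low cells of the same libraries. Small intestinal absorptive markers, 24 genes, summed to 12958 and 14583 CPM in Si8 members. These values move with every difference in these lists, where 15 of 18 tested Paneth markers and 13 of 15 absorptive markers were lower in DC. The part of free RNA in them was not tested.

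ER genes were mostly lower in DC members. Of 47 genes of ER folding and the unfolded protein response, 29 were lower and 2 higher (median log2 fold change -0.80), or 22 lower and 8 higher by library totals alone (-0.40). Of 43 genes of ER translocation and ER-to-Golgi transport, 34 were lower and 1 higher (median -0.76), or 22 and 3 by library totals alone (-0.36). The protein disulfide isomerase gene Txndc5 stood at 365 and 431 CPM in DC and 1177 and 1120 in Si8. Sec11c, of the signal peptidase, stood at 268 and 313 CPM in DC and 774 and 743 in Si8. Hspa5 was at 2116 and 2171 CPM in DC and 2020 and 1743 in Si8 (log2 fold change -0.21, edgeR adjusted p = 0.18). The 2 higher genes were Ern1, a sensor of unfolded protein, and Herpud1, of ER-associated degradation.

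O-glycosylation genes split, with 11 of 41 higher in DC and 18 lower, or 18 and 14 by library totals alone, where the larger side turns. Gcnt1 stood at 73.9 and 66.1 CPM in DC and 1.08 and 1.04 in Si8, and B3galt5 at 98.7 and 110 against 2.23 and 0.751. C1galt1c1, the chaperone of the core 1 enzyme, stood at 128 and 102 CPM in DC and 244 and 210 in Si8. Among 27 transcription factors 12 were higher in DC and 5 lower. Cdx2, an intestinal identity factor, stood at 9.67 and 15.8 CPM against 82.2 and 94.3 and Spdef at 147 and 139 against 200 and 186. Atoh1 did not pass (408 and 251 against 192 and 179 CPM, edgeR adjusted p = 0.134).

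Stress genes ran higher in DC and immune response genes lower. Of 29 dissociation stress and heat shock genes 18 were higher and 1, Socs3, was lower, with a median log2 fold change of 0.67. The list summed to 27249 and 22391 CPM in DC members and 12562 and 10577 in Si8 members. Jun stood at 2453 and 2209 CPM in DC and 935 and 825 in Si8. Its part in the other differences was not tested. Of 36 interferon response genes 25 were lower in DC and 3 higher (median -1.40), and of 8 MHC class II genes 7 were lower and 1 higher (median -3.51). Cd74, the invariant chain, stood at 2.42 and 2.51 CPM in DC and 182 and 87.5 in Si8.

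Genes at least 2-fold higher in members than in other kept DC cells, or than in Clca1-low cells, did not all pass between regions. Such genes were not all highest in members. Mxd1-high cells stood above members in both DC libraries for Id3 (1012 and 1214 CPM), Cdkn1a (838 and 840) and Fhl1 (405 and 285). Bcas1 (470 and 358 against 330 and 328 in members) and Fer1l6 (353 and 233 against 127 and 116) ran the same way. Capn9 (126 and 115), Scin (415 and 371) and Rep15 (843 and 800) stood lower there than in members. Capn9 stood at 139 and 140 CPM in DC members and 114 and 132 in Si8 members (edgeR adjusted p = 0.2). Scin stood at 534 and 456 and at 278 and 334 (edgeR adjusted p = 0.157). Id3 stood at 765 and 970 and at 806 and 957 (edgeR adjusted p = 0.0662). Bcas1, Fer1l6 and Cdkn1a did not pass either. A p above the threshold does not show equal levels. Rep15 stood at 1323 and 1130 CPM in DC against 326 and 295 in Si8 (log2 fold change 1.58 ± 0.12, edgeR adjusted p = 5.09e-05). Fhl1, a LIM-domain gene, stood at 207 and 194 CPM against 20.4 and 22.6. Krt20 stood at 60.1 and 82.7 CPM in DC and 665 and 792 in Si8.

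Finally, members were compared with the other Muc2-high cells of the same library, and the interaction of that difference with tissue was tested with edgeR on the sums, with library as a block. Of 11930 genes 103 passed (0.863%). The member-minus-other log2 difference, taken with its sign, was higher in DC for 44 and higher in Si8 for 59. By library totals alone 178 passed, 131 with the difference higher in DC and 47 in Si8, so the larger side turns. Spink1 is an example. It stood at 6457 and 6666 CPM in DC members and 1757 and 887 in the other Muc2-high DC cells, but at 108 and 65.8 in Si8 members and 134 and 123 in the others there (interaction 2.83 ± 0.32 on the log2 scale, edgeR adjusted p = 0.0133). Guca2a, encoding guanylin, stood at 966 and 988 CPM in DC members and 1545 and 1569 in the others, but at 10804 and 12232 in Si8 members and 6038 and 5642 in the others (-1.82 ± 0.23, edgeR adjusted p = 0.0181). For both genes the members lay on opposite sides of the other Muc2-high cells in the regions, in every library. The makeup of those other cells differed too. Clca1-low cells numbered 553 and 1576 in DC and 154 and 182 in Si8. Mxd1-high cells numbered 143 and 145 in DC and 368 and 130 in Si8. Clca1 stood at 6526 and 5502 CPM in DC members and 2025 and 857 in the others. In Si8 it stood at 7468 and 7780 and at 6161 and 2963. The rule thus parted members from the others on Clca1 by more in DC. Genes that track Clca1 can gain an interaction from this selection alone. The part of these in the calls was not tested. The count of called genes rested on single libraries, at 1777 without Si8 1, 928 without Si8 2, 53 without DC 2 and 109 without DC 1.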

How the data were processed

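The deposited values are raw counts of UMIs per gene and barcode, with no normalization. The submitters' processing notes name Cell Ranger 2.1.1 and the build mm10, and say nothing of the annotation version. Of 28694 gene identifiers, 28418 (99.0%) were found in GENCODE M21 (GRCm38), from which coordinates were taken. The members, the gene lists and the rule for named genes were chosen with earlier results of these data known.

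Doublets were scored with Scrublet (scanpy 1.11.5). Its own threshold marked 14, 0, 3 and 3 cells of these libraries, so for the alternative without doublets the highest scores were removed instead, 28, 193, 18 and 40 cells of DC 1, DC 2, Si8 1 and Si8 2. Sums of UMIs were taken per class and library. Within the colon no test was made. Tissues and the interaction were tested with edgeR 4.0.16 (glmQLFit, TMM, filterByExpr with a minimum count of 10, threshold 0.05). Standard errors were taken as the log2 fold change over the square root of its F statistic. TMM factors of the member sums were 1.16 (DC 1), 1.14 (DC 2), 0.892 (Si8 1) and 0.848 (Si8 2), which shifts fold changes against ratios of CPM. Genes of the rule were left out of counts. DESeq2 1.42.0, scaling, filters, thresholds, thinning to 2000 UMIs and leaving out each library were the alternatives. The tests were checked on simulated data. Member sums held 2893069 and 3970189 UMIs in DC and 12070443 and 17301887 in Si8.

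Named were the 4 markers, the 15 highest and 15 lowest ratios within the colon, the 10 largest changes each way in each test, the genes of the rule, the 5 most abundant genes, and the leading genes of each list. The ratios within the colon were ranked only among genes with the same direction in both DC libraries. Some genes that show per-class, per-cell or Clca1-level patterns were chosen after their values were seen. Some genes that this rule would name are not reported here.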

Additional observations from a re-analysis of the deposited data

Results flagged for a closer look

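The member-minus-other difference of the genes below differed between the regions by edgeR's interaction test. They are among the largest each way at 50 CPM or more. The limits given with that test, on the Clca1 clause and the makeup of the other cells, hold here too. Values are log2 interactions, positive where the difference, taken with its sign, was higher in DC. They were 7.65 for Chgb, 3.56 for Pmp22, 3.0 for Retnlb, 2.83 for Spink1, 2.69 for Ang4, 1.91 for Kcnq1ot1, 1.52 for Cdo1, 1.46 for Fzd5, 1.44 for Fgfbp1 and 1.39 for H2-Ab1. On the negative side they were -3.53 for Muc3a, -1.82 for Guca2a, -1.76 for Csrp2, -1.56 for Tmem176b, -1.56 for B3gnt7, -1.51 for Selenbp1, -1.47 for Ttr, -1.45 for Cyp2c68 and -1.41 for Slc5a8. Cdo1 and Fgfbp1, like Csrp2 and Slc5a8, were lower in members than in the other Muc2-high cells in both regions. Kcnq1ot1 stood at 66.3 and 66.9 CPM in DC members and 66.9 and 66.5 in the others. In Si8 Kcnq1ot1 stood at 0.497 and 1.10 CPM in members and 1.56 and 5.45 in the others. Cdo1 stood at 1.41 and 1.91 CPM in Si8 members.

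Chgb, an enteroendocrine granule gene, stood at 55.6 CPM in members of DC 2 and 0.345 in members of DC 1. In DC 2 it had a UMI in 1.52% of 396 members and reached 223 UMIs per 10000 in a single cell, where the mean over members was 0.578. Its call was lost without DC 2, without Si8 2, with DESeq2 and at a Clca1 threshold of 40. Ang4 stood at 280 and 111 CPM in DC members and 35.3 and 15.5 in the other Muc2-high DC cells, but at 91.6 and 267 in Si8 members and 83.1 and 277 in the others. Pmp22, a myelin and epithelial membrane protein gene, stood at 136 and 139 CPM in DC members and 89.3 and 57.7 in the other Muc2-high DC cells, but at 4.88 and 6.29 in Si8 members and 81.1 and 19.1 in the others there.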

How the results depend on the processing

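Within the colon the counts of genes 2-fold higher and lower were 29 and 82. They were 17 and 52 with the mean over cells of each cell's own CPM, 9 and 23 against the other Muc2-high cells alone, and 16 and 45 with every cell thinned to 2000 UMIs. Leaving out a DC library gave 36 to 47 higher and 102 to 110 lower. The mean share of members in DC, 10.8%, was 15.5% at a Clca1 threshold of 10 and 6.42% at 40, and 8.05 to 13.5% with a library left out.

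The 4250 calls between tissues became 1905 with cells thinned, of which 1799 were shared, and 3135 to 3652 with 1 library left out. The replicate numbers are not said to pair libraries, and deviations of same-numbered libraries correlated at r = 0.138 over 10766 genes. With the replicate block 4883 genes were called. No named tissue call changed direction under any alternative, and 40 values for single genes were no longer called, among them Cenpa, Slc5a8 and Cdca3. The 103 interaction calls became 178 with library totals alone, 594 without the count filter, 11 with cells thinned, 49 without the 10 most abundant genes, and 53 to 1777 with 1 library left out. The lone library of a tissue was then assumed to vary like the other tissue. Thinning leaves fewer genes tested, 7058 in place of 10748 between tissues, and other causes were not tested. With 2 libraries a tissue, small differences were not detectable.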

Other observations

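Some gene groups of the members were not described above. Between tissues, 19.0% of all genes tested were higher and 20.5% lower in DC, or 4361 higher and 1146 lower of 10748 by library totals alone, and the counts below are to be read against that. Of 12 counted genes of cholesterol synthesis and uptake, none was past 2-fold against the other DC cells (median ratio 1.34), while 8 of 20 tested were higher and 2 lower in DC members than in Si8 members, or 13 and 1 by library totals alone. Of 20 tested genes of fatty acid oxidation and ketogenesis, 10 were higher and 2 lower in DC members, or 12 and 1 by library totals alone. Of 16 counted cell junction and crypt position genes, Efnb2 was higher and Cldn2 lower in members than in the other DC cells.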
